A study of Homo sapiens with 6 samples.

Results

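The genes examined here encode factors that start DNA replication: the kinase CDC7, the helicase subunits CDC45, GINS1 and GINS2, and the single-strand binding protein RPA2. They were taken by gene symbol from tables of anti-TY chromatin immunoprecipitation (ChIP-seq) density around transcription start sites (TSSs). All 5 symbols had 1 TSS each, among 3000 TSSs in the tables. The tables compare a pair of untreated lines derived from RPE1, an immortalised human retinal pigment epithelium line. Both carry the background that the labels write as iCas9 p53/puro-dKO. WT cells (3 libraries) express no tagged protein, and what the antibody recovers from them is background. The other line (3 libraries) lacks endogenous CFAP20 and carries TY-tagged CFAP20 instead. CFAP20 is known as a cilium-associated protein, and the study asked how it relates to transcription and replication. Which promoter drives the tagged protein, and whether each line is 1 clone, was not stated in these sources. The deposited densities are averages over the libraries of a group and are normalised to Drosophila spike-in chromatin. There is thus 1 value per group at each position, and the differences below carry neither a replicate error nor a p-value.

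Replication origins are first licensed by loading of the MCM helicase in an inactive form. Firing follows when CDC7, with its partner DBF4, phosphorylates MCM, and CDC45 and the 4-subunit GINS complex then join MCM to form the active CMG helicase. RPA, a complex of 3 subunits, coats the single-stranded DNA that the helicase exposes. Genes of this pathway are known targets of E2F transcription factors in proliferating cells. The measurement here is not on these proteins but on the chromatin at the start of their genes.

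Of the 5 genes, 4 had an entry in the RefSeq promoter table (GRCh38.p14), which spans 250 bases before and 50 bases after a gene's start. RPA2, whose deposited TSS is at position 27914744 of chromosome 1 (hg38, minus strand), was not among them. Where a gene had several entries, the start nearest the deposited TSS was taken. The sequences are shown because the densities described next were taken over them. The highest TY-CFAP20 density near CDC7 and CDC45, at 130 and 120 bp downstream of the TSS, lies beyond the printed bases. Capitals mark matches to an E2F motif (TTTCCCGC, TTTCGCGC, TTTGCCGC or TTTGGCGC) or to the CCAAT box (CCAAT), searched on both strands, and each is written 5′ to 3′ on the strand of its gene.
CDC7, chr1:91500601-91500900, plus strand: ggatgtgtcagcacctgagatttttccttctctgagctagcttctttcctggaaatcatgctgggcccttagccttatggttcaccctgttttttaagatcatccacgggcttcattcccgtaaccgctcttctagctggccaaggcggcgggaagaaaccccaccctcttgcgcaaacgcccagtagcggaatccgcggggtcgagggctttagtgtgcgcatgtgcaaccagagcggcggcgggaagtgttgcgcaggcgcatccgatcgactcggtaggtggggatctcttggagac
CDC45, chr22:19479216-19479515, plus strand: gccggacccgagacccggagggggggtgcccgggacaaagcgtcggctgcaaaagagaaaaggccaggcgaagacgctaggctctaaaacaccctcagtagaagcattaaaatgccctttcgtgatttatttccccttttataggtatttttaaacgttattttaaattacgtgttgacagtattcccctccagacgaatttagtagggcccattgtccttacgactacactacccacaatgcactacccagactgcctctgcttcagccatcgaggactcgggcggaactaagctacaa
GINS1, chr20:25407423-25407722, plus strand: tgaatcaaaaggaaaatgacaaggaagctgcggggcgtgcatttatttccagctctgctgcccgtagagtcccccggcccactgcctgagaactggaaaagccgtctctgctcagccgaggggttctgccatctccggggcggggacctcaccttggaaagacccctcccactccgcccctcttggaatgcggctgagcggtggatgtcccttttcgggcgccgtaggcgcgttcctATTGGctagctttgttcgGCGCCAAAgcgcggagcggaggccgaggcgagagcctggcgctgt
GINS2, chr16:85688905-85689204, minus strand: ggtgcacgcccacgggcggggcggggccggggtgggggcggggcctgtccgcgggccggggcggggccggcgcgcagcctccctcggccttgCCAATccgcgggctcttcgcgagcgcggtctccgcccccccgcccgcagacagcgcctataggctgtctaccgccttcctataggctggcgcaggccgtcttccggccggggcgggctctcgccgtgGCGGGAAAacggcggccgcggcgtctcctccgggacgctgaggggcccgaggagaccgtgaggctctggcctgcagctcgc
Both GINS genes held 1 match to each motif, and CDC7 and CDC45 held neither. Over all 34943 promoters of this length, 3.30% held the E2F motif and 34.6% the CCAAT box. The GINS1 match to E2F begins 49 bp upstream of the deposited TSS and that of GINS2 15 bp downstream of it. These are matches of letters and no measure of binding. The E2F and CCAAT matches do not overlap each other in either GINS gene. The 300 bases of GINS2 held 43 CpG dinucleotides and a GC content of 78.3%. GINS1 had 24 CpG and 62.3%, CDC7 20 CpG and 57%, and CDC45 16 CpG and 49.7%, against medians of 14 CpG and 58.7% over all promoters.

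In these same promoter intervals TY-CFAP20 density exceeded WT at all 4 genes, most at GINS2. The GINS2 promoter had a mean density of 0.456 in WT and 2.13 in TY-CFAP20, which is 4.67 times as much, and only 189 of the other TSSs had a larger difference at the same distance from the TSS. The GINS1 promoter stood at 0.730 and 1.40 (ratio 1.92), and that of CDC7 at 0.656 and 1.38 (ratio 2.10). CDC45 had 0.656 and 1.08 (ratio 1.64). Over all TSSs the median ratio in these intervals lay between 1.84 and 1.94, so the ratio at GINS2 stood well above this median and the other 3 lay near it or below.

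The wider window of 500 bp on each side of the TSS gave 5 of 5 genes higher in TY-CFAP20 than in WT. That was also so for 91.2% of all TSSs, so the count alone says nothing particular about these genes. CDC7, the kinase that triggers firing, had a density of 0.694 in WT and 1.36 in TY-CFAP20, a difference of 0.668. CDC45, the helicase activator, had 0.660 and 1.23, a difference of 0.575. GINS2 had 0.888 and 1.57, the highest TY-CFAP20 level and, at 0.684, the largest difference of the 5. GINS1, another subunit of the same complex, had 0.748 and 0.857, a difference of only 0.109. RPA2, the middle subunit of RPA, had 0.720 and 1.20, a difference of 0.477. WT levels thus spanned a narrow range and the genes differed mainly in the TY-CFAP20 level. The median difference over the 5 genes was 0.575, against 0.571 over all TSSs, with 25th and 75th percentiles of 0.267 and 0.846. From the largest difference down, GINS2 had 1179 of the 3000 TSSs above it, CDC7 1219, RPA2 1751 and GINS1 2557, and CDC45 ranked 1491st. With no replicate spread, it cannot be said which neighbours in this order differ.

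**Figure D1:**
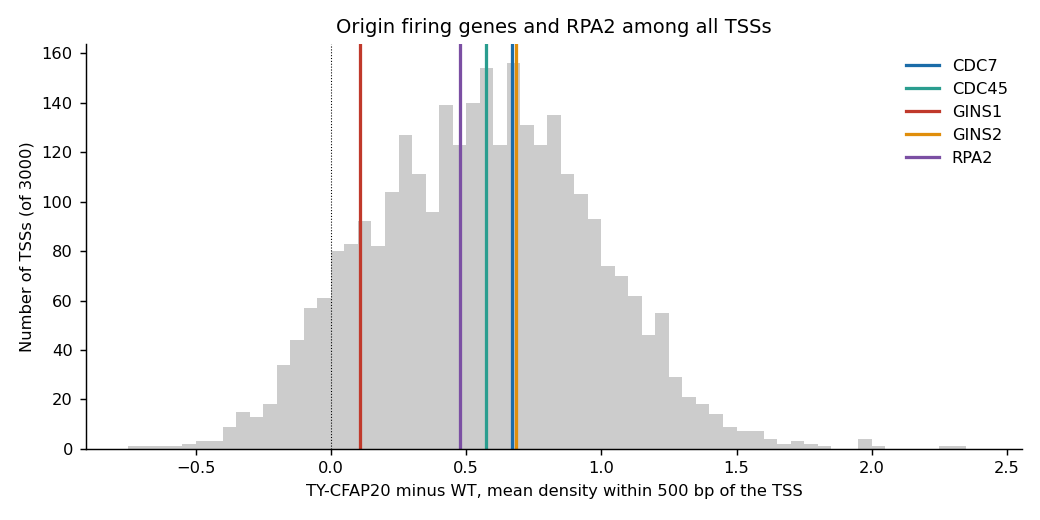
Histogram of TY-CFAP20 minus WT density within 500 bp of the TSS over all 3000 TSSs (x axis: difference in spike-in normalised density, y axis: number of TSSs), with a vertical line for each of the 5 genes. CDC7, CDC45, GINS2 and RPA2 lie between 0.477 and 0.684 in the middle of the histogram, and GINS1 lies near 0 at 0.109.

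As a fold change, none of the 5 genes reached 1.5-fold when 0.668, the median WT density in the outermost 1 kb on each side of the 10 kb region, was added to both groups as a pseudocount, and 34.9% of all TSSs did. CDC7 came closest, at 1.49-fold. The pseudocount understates the ratio of low densities. The plain ratio was 1.96 at CDC7, 1.87 at CDC45, 1.77 at GINS2, 1.66 at RPA2 and 1.15 at GINS1, so that 4 of the 5 passed 1.5-fold, as did 66% of all TSSs that reached 0.2 in WT (2984 in number). Both counts are given because the call depends on the pseudocount.

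The depth behind these averages is known only within bounds. All deposited densities could be built from 3 step sizes in each group, taken here as the worth of 1 fragment in each of its libraries. On that reading, and depending on the gene and on the step taken, the mean position within 500 bp of these TSSs was covered by 6.83 to 38.0 fragments in WT and by 8.57 to 37.0 in TY-CFAP20, summed over the libraries. Library totals are unknown.

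The signal was local to the start site at each gene. The difference within 500 bp was compared with that in the 8 adjoining windows of 1 kb along the same region, 4 upstream and 4 downstream. It exceeded all 8 at 5 of 5 genes, and at 57.8% of all TSSs. CDC45 had differences from -0.186 to 0.149 in its adjoining windows, all well below its 0.575 at the TSS. GINS2 ranged from -0.0213 to 0.251, and its highest adjoining window lay from 2.5 to 1.5 kb upstream. RPA2 ranged from -0.0994 to 0.297, the narrowest gap between the TSS and the next highest window. CDC7 ranged from -0.348 to 0.281, with the highest value just inside the gene from 500 to 1500 bp. All 8 windows of GINS1 were below WT, from -0.461 to -0.136.

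**Figure D2:**
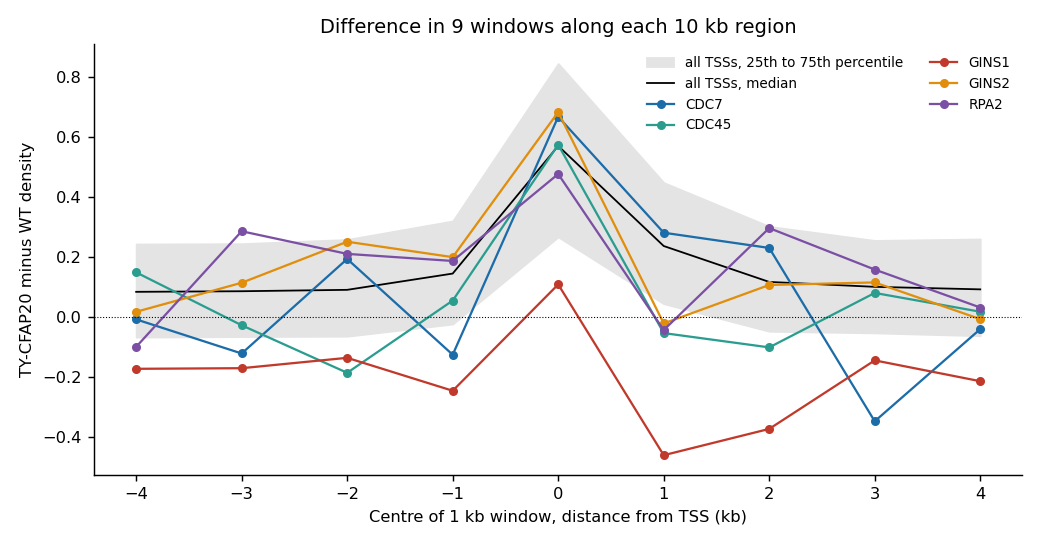
TY-CFAP20 minus WT density in 9 windows of 1 kb (y axis) by distance of the window's centre from the TSS in kb (x axis), for the 5 genes, with the median and the 25th to 75th percentile over all 3000 TSSs. Each gene is highest over the TSS. GINS1 is below 0 in all 8 adjoining windows, from -0.461 to -0.136, and at 0.109 over the TSS.

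Within the central 1000 bp the 5 genes had different shapes, which the window average hides. In steps of 200 bp, GINS2 stood at 0.511 in WT and 2.28 in TY-CFAP20 from -100 to 100 bp, a difference of 1.77 that ranked 192nd of 3000. From 300 to 500 bp inside the same gene the order was inverted, with 1.60 in WT and 0.672 in TY-CFAP20. That difference of -0.927 ranked 2992nd of 3000. After smoothing over 100 bp, and searching within 1000 bp of the TSS, the WT density of GINS2 had its summit at 400 bp (1.73) and the TY-CFAP20 density at 80 bp (2.44). The untagged line thus had a summit of its own inside this gene, but its height was not particular to GINS2. The same search gave WT summits of 1.73 at 720 bp for GINS1 and 1.32 at -750 bp for CDC45. For CDC7 the highest WT value, 1.34, lay at 1000 bp, the edge of the search, and may not be a summit. In 38 steps of 200 bp more than 1.1 kb from the TSS, the GINS2 difference ranged from -0.426 to 0.791, so both central values lay outside that range. A central step below all outer steps, as at GINS2, was found at 4.5% of all TSSs.

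CDC45 had its largest step from 100 to 300 bp, at 0.342 in WT and 1.60 in TY-CFAP20. Its smoothed TY-CFAP20 summit of 1.88 was at 120 bp. The difference of 1.26 ranked 446th, and the step from -300 to -100 bp upstream had only 0.253. The GENCODE v44 annotation places the canonical start of UFD1, a gene read in the opposite direction and a cofactor of the segregase p97, 266 bp upstream of the CDC45 TSS. The canonical CDC45 transcript starts 461 bp downstream of the deposited TSS, which itself coincides with the start of another annotated CDC45 transcript. TY-CFAP20 at this gene was therefore highest between the deposited and the canonical start of CDC45. The TY-CFAP20 signal of 2 divergent genes so close together cannot be assigned to either.

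CDC7 had a broad shape, with its TY-CFAP20 summit of 1.77 at 130 bp. Its difference was 0.764 from -300 to -100 bp, 0.772 across the TSS, 1.05 from 100 to 300 bp and 0.663 from 300 to 500 bp. Between 500 and 1000 bp downstream it was still 0.465, against -0.0420 over the same distance upstream. Over all TSSs these medians were 0.303 downstream and 0.161 upstream. The CDC7 signal lay mainly inside the gene.

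RPA2 had 1 strong step across the TSS, with 0.391 in WT and 1.56 in TY-CFAP20, a difference of 1.16. Farther downstream TY-CFAP20 stayed high, at 1.66 from 100 to 300 bp and 1.502 from 300 to 500 bp. WT was higher there too, at 1.10 and 0.939, so the differences were 0.561 and 0.563. From 500 to 1000 bp RPA2 was below WT by -0.194. The RPA2 summits of both groups lay downstream as well, that of WT (1.21) at 240 bp and that of TY-CFAP20 (2.05) at 310 bp. The canonical RPA2 transcript starts 169 bp downstream of the deposited TSS, within this stretch of high density.

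GINS1 had a narrow TY-CFAP20 summit of 1.63 at -140 bp, upstream of the TSS. From -300 to -100 bp its density was 0.681 in WT and 1.42 in TY-CFAP20, and the difference of 0.735 was above the median of 0.554 over all TSSs in that step. On its downstream side the sign changed. From 100 to 300 bp GINS1 had 0.892 in WT and 0.529 in TY-CFAP20, a difference of -0.363. Across the TSS, from -100 to 100 bp, GINS1 had 0.780 in WT and 1.02 in TY-CFAP20. That difference of 0.244 was below the median of 0.730 over all TSSs. The small value of GINS1 over the full window thus combines a step above the median of all TSSs, from -300 to -100 bp, with steps below it.

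For all 5 genes the highest of the 5 central steps exceeded every one of the 38 outer steps of the same region, and this held for 59.3% of all TSSs. The outer steps had an SD between 0.261 at GINS2 and 0.407 at CDC7. RPA2 had the smallest margin, with 1.16 in its central step and 0.985 in its highest outer step. This compares positions within an average and is no replicate error.

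**Figure D3:**
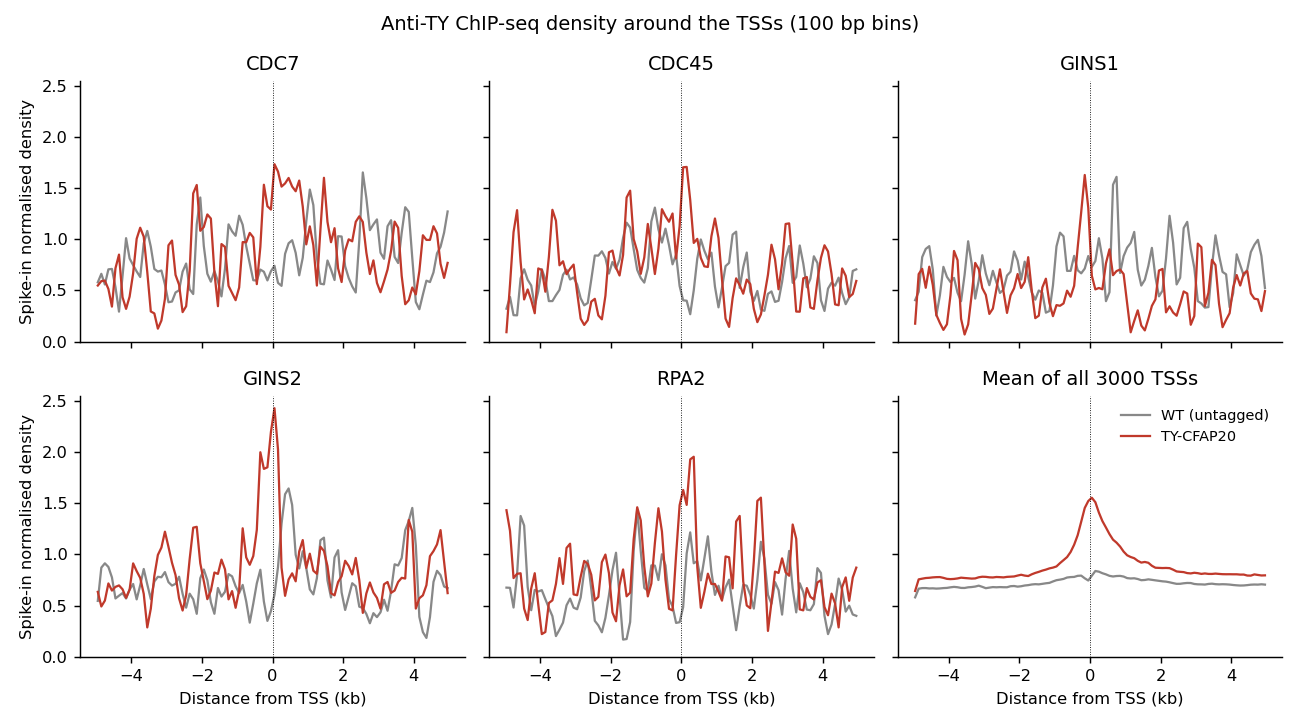
Spike-in normalised anti-TY density (y axis) by distance from the TSS in kb (x axis) in bins of 100 bp, for untagged WT (grey) and TY-CFAP20 (red), in 1 panel for each of the 5 genes and 1 for the mean of all 3000 TSSs. A red summit stands over or next to each TSS, tallest at GINS2, where the grey summit at 400 bp follows it, and narrow and upstream of the TSS at GINS1.

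The low values at GINS1 extended beyond the gene. In the flanks, the outermost 1 kb on each side, GINS1 had 0.696 in WT and 0.462 in TY-CFAP20, a ratio of 0.664. The flank ratio was 1.02 at CDC7, 1.24 at CDC45, 1.12 at GINS2 and 1.12 at RPA2, with a median of 1.14 over all TSSs. Only 2.63% of all TSSs were below WT in all 8 adjoining windows, as GINS1 was, and 1.17% were so and yet above WT at the TSS. GINS1 lies on chromosome 20 with its TSS at 25407727 (hg38, plus strand). All 28 TSSs that precede it on that chromosome had a flank ratio below 1, from 0.324 to 0.926 with a median of 0.605. Of the 55 TSSs that follow it, 12 had a ratio below 1, and their median was 1.19. The next TSS after GINS1 in the tables, HM13-AS1, is 6.17 Mb away and had a flank ratio of 1.55. GINS1 was therefore the last TSS of a stretch with low TY-CFAP20 flanks, while WT flanks had similar medians before (0.689) and after (0.641) it. The cause of these low flanks was not tested.

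Measured against its own flanks, GINS1 did not stand below the other genes. Its ratio of TY-CFAP20 to WT at the TSS was 1.72 times its flank ratio. The same quantity was 1.92 at CDC7, 1.59 at GINS2, 1.51 at CDC45 and 1.48 at RPA2, with a median of 1.496 over all TSSs. After TY-CFAP20 was divided by the flank ratio of the same gene, the GINS1 difference was 0.542, against 0.382 as the median of all TSSs. ABHD12, which lies 16.8 kb before GINS1 and is read in the opposite direction, had a flank ratio of 0.451, with 0.727 in WT and 1.30 in TY-CFAP20 at its TSS. At 3.95 times its flank ratio, it had the highest such value of the chromosome 20 TSSs and does not stand for the stretch. RP5-965G21.4, the TSS before it, had a ratio of only 0.494 at the TSS. Of the 28 TSSs before GINS1, 13 were above WT at the TSS, with a median difference of -0.0399, and their median ratio at the TSS was 1.34 times their flank ratio.

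**Figure D4:**
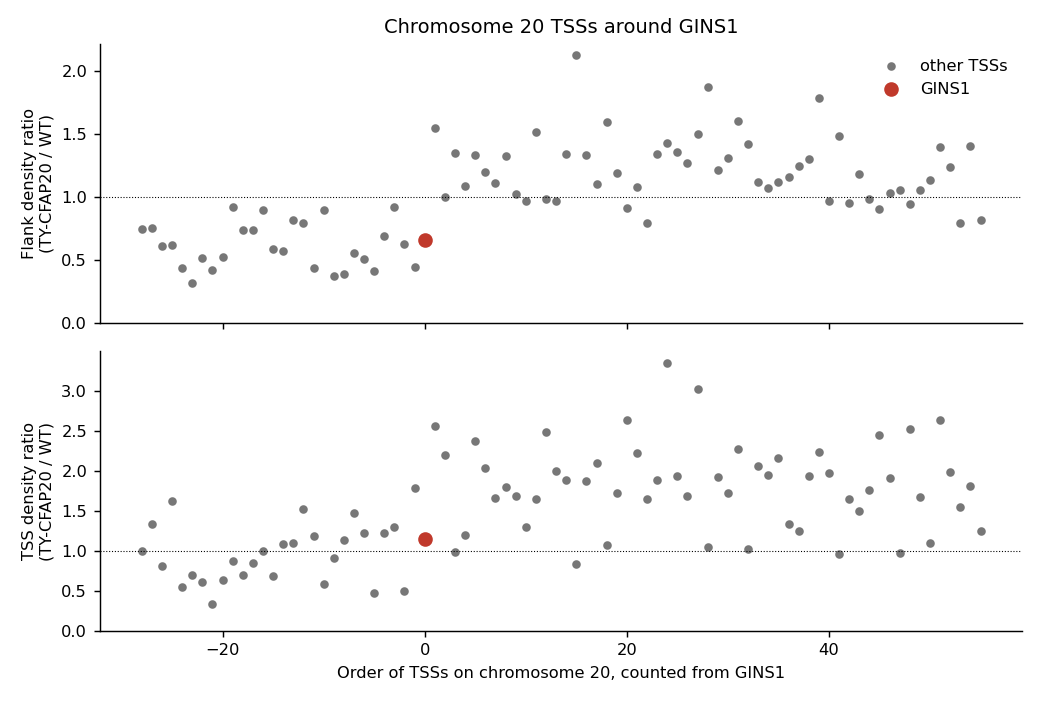
Ratio of TY-CFAP20 to WT density in the flanks (upper panel, y axis) and within 500 bp of the TSS (lower panel, y axis) for TSSs of chromosome 20 in their order counted from GINS1 (x axis). All 28 TSSs before GINS1 (red) have a flank ratio below 1, and 43 of the 55 after it are at or above 1.

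The tables of the study also list centres of replication origins, from sequencing of Okazaki fragments (OK-seq). GINS1 had a centre 4.23 kb upstream of its TSS, and 6.57% of all TSSs had a centre within 10 kb. Within 500 bp of that centre the density was 0.644 in WT and 0.467 in TY-CFAP20, a difference of -0.177. That stretch largely overlaps the outermost upstream adjoining window of this gene, at -0.173, so these values are not independent. Over all TSSs the median difference at the same distance was 0.0911. Among the 197 TSSs with a centre within 10 kb, GINS1 ranked 183rd by its difference at the TSS, and among all 3000 TSSs 2558th. Both ranks use the difference before any scaling to the flanks, whose ratio was low at GINS1 (0.664). The nearest centre was 54.5 kb from CDC45, 73.0 kb from GINS2, 197 kb from RPA2 and 404 kb from CDC7. These 4 genes thus had no listed centre within 10 kb, as was so for most TSSs. A relation of the difference to origins was not tested.

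Nascent transcription of the 5 genes was moderate, as given by bromouridine labelling (BrU-seq) in gene bodies of WT cells, whose scaling was not stated. The levels were 5.94 at GINS2, 3.05 at RPA2, 2.19 at CDC45, 1.99 at GINS1 and 1.37 at CDC7, with a median of 2.55 over the 3000 TSSs. GINS2 was highest in both BrU-seq and TY-CFAP20 density. CDC7 was the lowest in BrU-seq of the 5 and second in TY-CFAP20 minus WT, so the order of the 2 measures was not the same. In the BrU-seq class of each gene (5 classes of 600 TSSs) the median difference was 0.583 for GINS2, 0.579 for RPA2, CDC45 and GINS1, and 0.540 for CDC7. CDC7 and GINS2 lay above the median of their class, RPA2 and GINS1 below it, and CDC45 close to it. The R-loop level by DRIP (DNA-RNA hybrid immunoprecipitation) at the TSS was 632 at GINS2, 420 at CDC45, 381 at RPA2, 309 at GINS1 and 257 at CDC7, against a median of 528. GINS2 alone of the 5 exceeded that median.

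The rest of the pathway was examined through lists of origin firing, fork and licensing genes. Of 20 firing genes listed, 8 were measured, and all 8 were higher in TY-CFAP20, with a median difference of 0.674. Of all TSSs 91.2% were higher, with a median of 0.571, so the count says nothing particular about the list. Beside the 4 genes already described these were TOPBP1, MCM10, RIF1 and CCNE1. TOPBP1, a scaffold that helps to bring GINS to MCM, had the largest difference of the list at 0.846 (0.911 in WT and 1.76 in TY-CFAP20). Its flank ratio was 1.48, and its ratio at the TSS was 1.30 times that, below the median of 1.496 over all TSSs. MCM10, which acts on the assembled helicase, had 0.415 and 1.16, a plain ratio of 2.81 that exceeded those of CDC7, CDC45, GINS1 and GINS2. RIF1, which counteracts CDC7 through a phosphatase, had 0.965 and 1.64. CCNE1, which encodes cyclin E, had 0.920 and 1.29 and was the 1 gene of the 8 that did not exceed all its adjoining windows. With the pseudocount 2 of the 8 reached 1.5-fold, against 34.9% of all TSSs. RPA2 was the only one of 4 RPA genes measured.

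Among 31 genes of the replication fork, 4 were measured and 4 were higher, with a median of 0.597. They ran from CHAF1B (0.828), a histone chaperone subunit, and the polymerase delta subunit POLD2 (0.795) to POLE4 (0.398) and POLD3 (0.386). Measured against their own flanks the order was another. The ratio at the TSS was 2.35 times the flank ratio at POLD2, 1.71 at POLD3, 1.57 at POLE4 and 1.22 at CHAF1B. Of 17 licensing genes, 9 were measured and 9 were higher, with a median of 0.652. MCMBP (1.95) was highest and ORC5 (0.369), a subunit of the origin recognition complex, lowest. Both counts are near the 91.2% of all TSSs that were above WT, and the medians stand beside 0.571 over all TSSs. The GINS1 difference was below the lowest of both lists, and the other 4 genes lay within their range. No test of a difference between the lists is possible on 1 average per group.

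Profiles most like each gene were found by the Pearson correlation of TY-CFAP20 minus WT in 100 bins of 100 bp, leaving out TSSs within 10 kb. Neighbouring bins share fragments, so these values are a description only. CDC7 was most like ANKRD49 (r = 0.618) and NBPF1 (r = 0.612), CDC45 most like CCNT1 (r = 0.572) and RBM26-AS1 (r = 0.546), and GINS2 most like PPP1R3C (r = 0.653) and FAM199X (r = 0.615). GINS1 was most like AC092835.2 (r = 0.476) and U73166.2 (r = 0.465), and RPA2 most like MAP2K2 (r = 0.473) and FOXK1 (r = 0.450). None of these 10 genes belongs to the lists above. Those lists held only 8 firing, 1 RPA, 4 fork and 9 licensing genes of the 3000 TSSs, so this says nothing particular about the pathway. Between the 5 genes themselves r ranged from -0.00877 for GINS1 with RPA2 to 0.287 for CDC7 with GINS2, with a median of 0.109. The median r of each gene with all TSSs not left out was similar, from 0.0748 at GINS1 to 0.169 at CDC7.

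**Figure D5:**
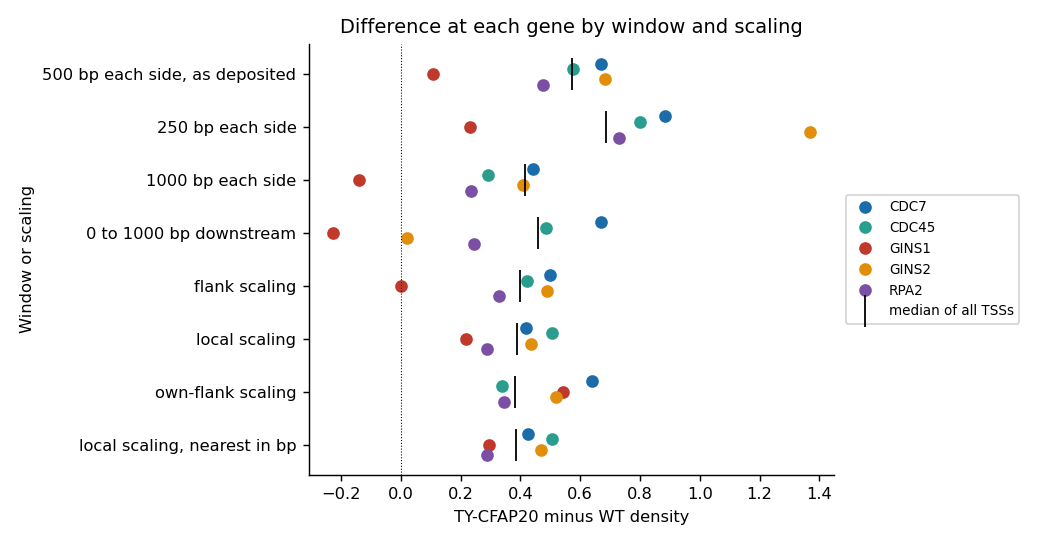
TY-CFAP20 minus WT density (x axis) at each of the 5 genes (coloured points) and as the median of all TSSs (black ticks), under each window and scaling (y axis). CDC7, CDC45, GINS2 and RPA2 are above 0 in every row, GINS2 reaches 1.37 within 250 bp and only 0.0210 from 0 to 1000 bp downstream, and GINS1 is below 0 within 1000 bp and from 0 to 1000 bp downstream.

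The differences moved with the window. Within 250 bp of the TSS the GINS2 difference was 1.37, against a median of 0.685 over all TSSs. From 0 to 1000 bp downstream it was 0.0210, a window that holds both the WT and the TY-CFAP20 summit. At GINS1 the narrowest window gave 0.232. The difference changed sign to -0.140 with 1000 bp on each side, and to -0.226 in the downstream kilobase alone. The scaling moved GINS1 further, to the 0.542 given above with its own flanks. When TY-CFAP20 was divided by 1.14, the mean flank ratio of all TSSs, the median difference over all TSSs fell from 0.571 to 0.398 and GINS1 stood at 0.00202, level with WT. The other 4 genes remained above WT, between 0.328 at RPA2 and 0.498 at CDC7.

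Expression of markers was checked from the BrU-seq levels. Of 8 pigment epithelium markers, OTX2 (10.0) and MITF (1.40) had a level, and RPE65 and CRX were listed without one. The other 4 (PMEL, TYR, TYRP1 and BEST1) were not among the TSSs listed by the authors. The blood marker CD3E was listed without a level.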

How the data were processed

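Anti-TY ChIP-seq was made from 3 WT and 3 TY-CFAP20 libraries. For each group the authors deposited a single table of density signal, spike-in normalised and averaged, per the file headers and labels, with 1001 positions 10 bp apart around each TSS in hg38. Per the labels' protocols, both the chromatin and the Drosophila spike-in amounts were larger in the WT reactions. BWA 0.7.17, HOMER 4.8.2 and SAMtools 1.11 are among the tools named, per the submitters' processing notes. The computation of the spike-in factor was not stated. A deposited column holds a ratio headed CFAP20 over WT, whose assay the authors' header does not name. It is used only in the closing section. Every column of measured values could be tied to a group.

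From these tables, mean densities were taken per TSS and window, and differences are TY-CFAP20 minus WT. As each group is 1 average, there is no test. Coordinates are 1-based, and the deposited hg38 positions were used with GENCODE v44 and RefSeq promoters of GRCh38.p14. The members, gene lists, windows and settings were chosen with earlier results of these data known. The rule named all 5 members, the 2 TSSs most like each in profile, listed TSSs within 10 kb of a member (none was found) and the extremes of each list. UFD1, ABHD12, RP5-965G21.4, HM13-AS1 and the other list genes were named after their values were seen. The GINS1 stretch was also described after its values were seen. Window means, fold calls and flank ratios were tested on simulated data. Python 3.11.15, numpy 2.4.6, pandas 2.3.3 and matplotlib 3.10.9 were used. Alternatives covered window, scaling, pseudocount and threshold.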

Additional observations from a re-analysis of the deposited data

How the results depend on the processing

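No paired analysis was possible because the values are group averages, and leaving out a replicate could not be run for the same reason. Local scaling divided TY-CFAP20 by the flank ratio of 11 neighbouring TSSs, and its variant with the 11 nearest in bp was added after seeing the data. The count of 5 genes above WT was 4 within 1000 bp and from 0 to 1000 bp downstream, where GINS1 was at -0.140 and -0.226, and 5 under the other windows and scalings. Of all TSSs, 90.7% and 88.8% were above WT in those 2 windows, and 84.1% to 90.9% under the other settings. All 5 exceeded their adjoining windows under all 4 scalings, as did 55.7% to 56.5% of all TSSs. The count of 0 genes at 1.5-fold was 4 within 250 bp (47.1% of all TSSs), 4 with 0.25 times the pseudocount (57.7%) and 4 without one (66%). A smaller pseudocount raises it by construction. The median difference of 0.575 (0.571 over all TSSs) became 0.8001 in the 250 bp window, where all TSSs had 0.685. It was 0.293 against 0.416 in the 1000 bp window, and 0.247 against 0.459 downstream only. The median of the 5 genes was thus level with that of all TSSs or above it in the narrower windows and below it in these 2. Single genes departed from this. CDC7 (0.671) and CDC45 (0.485) were above 0.459 downstream, and GINS1 (0.232) was below 0.685 within 250 bp. The cause of the change with the window was not tested. With the mean in place of the median, the 500 bp window gave 0.503 for the 5 genes, against 0.565 over all TSSs. Over 7 alternatives, the difference ranged from 0.419 to 0.882 at CDC7, from 0.293 to 0.8001 at CDC45, from 0.236 to 0.729 at RPA2, from 0.0210 to 1.37 at GINS2 and from -0.226 to 0.542 at GINS1. Depth is known only within the bounds given above, and no counting error was computed.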

Other observations

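The density tables carry 1 more column, a ratio of CFAP20 to WT for which the header gives no assay. In the authors' deposited table this ratio was 2.21 at CDC7, the 128th highest of 2999. In the authors' deposited table it was 1.38 at RPA2, 1.29 at GINS1, 1.07 at CDC45 and 0.729 at GINS2. The authors' deposited table gave 1.14 as the median of all TSSs. GINS2, with the largest anti-TY difference of the 5 genes, thus had the lowest value in this column, and GINS1, with the smallest difference, lay above the median.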
